A study of Mus musculus with 32 samples.

Results

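The G2/M checkpoint genes are those that cells use to finish DNA replication, enter mitosis and separate their chromosomes. They were taken from the hallmark G2/M checkpoint list in the gene set collection that accompanies the counts. Of its 199 names, 198 were counted, and 11 of these were left out. Cdk4, Mcm5, Myc, Nolc1, Plk1 and Plk4 were removed as members of the hallmark list MYC_TARGETS_V2, and Birc5, Ccnd1, Hif1a, Odc1 and Smad3 were removed by name. The remaining 187 of the 17757 counted genes are described here, of which 185 reached 10 counts in every library. The exceptions were Egf, a growth factor with a mean of 3.25 counts per library, and H2bc12, a histone H2B gene with a mean of 44.5.

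The libraries came from 4T1 spheroids kept for 5 days in lung-like medium, 4T1 being a line of mouse mammary carcinoma cells. Polysome profiling separates mRNAs by the ribosomes they carry, and each spheroid pellet gave a polysomal library (more than 3 ribosomes) and a sub-polysomal library (fewer than 3). There were 4 conditions of 4 independent pellets, and hence 32 libraries. The reference condition, ASP shSCR, received 700 µM aspartate and a scramble shRNA. NoASP shSCR had the scramble shRNA without added aspartate, ASP shGRIN2D had aspartate and an shRNA against Grin2d, a subunit of the NMDA receptor, and ASP shDHPS had aspartate and an shRNA against Dhps, the enzyme of the first step of hypusine synthesis on the translation factor eIF5A. All conditions shared the cell line, the medium and an shRNA vector, so no library came from cells without one. The comparisons ask whether translation changed with aspartate, with the receptor subunit or with hypusine synthesis, and all 3 share the ASP shSCR libraries.

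A cell builds its mitotic machinery once per division, and most of the genes are transcribed in late S, G2 and M phase. Cyclin-dependent kinases with their cyclins drive entry into mitosis, the spindle assembly checkpoint holds anaphase until every kinetochore is attached, and the anaphase-promoting complex then ends mitosis by marking cyclins for degradation. The E2F, MYB and DREAM factors, which bind the promoters, are themselves part of the list. In bulk RNA, fewer cells in a phase and less RNA per cell cannot be told apart.

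Many promoters of mitotic genes are known to pair CCAAT boxes with a cell cycle genes homology region, CHR, the element bound by DREAM and MYB complexes. Among the 156 genes with a RefSeq promoter window (GRCm38.p6, 250 bases before to 50 after the start), TTTGAA or TTCGAA on either strand was found in 59 (37.8%), against 19.4% of all 27025 windows. CCAAT on either strand was found in 87 (55.8%, against 37.9%), and both motifs in 42 (26.9%, against 7.7%). TTCGAA reads the same on both strands, and matches were counted also where they share a base. Of 6 proliferation markers with both motifs before the start, these 4 were picked after their ratios were seen, because they differ in polysome association. The stretches of Top2a and Mcm2 are not shown. Capitals mark the motifs, and each stretch ends before the transcription start. Ccnb2 has a further TTTGAA at position 5 after the start, outside its stretch.
Mki67 promoter, chr7:135716462-135716577, minus strand: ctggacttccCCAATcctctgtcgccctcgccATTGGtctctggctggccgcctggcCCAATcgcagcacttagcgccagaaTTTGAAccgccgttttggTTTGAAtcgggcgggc
Cdk1 promoter, chr10:69352913-69353130, minus strand: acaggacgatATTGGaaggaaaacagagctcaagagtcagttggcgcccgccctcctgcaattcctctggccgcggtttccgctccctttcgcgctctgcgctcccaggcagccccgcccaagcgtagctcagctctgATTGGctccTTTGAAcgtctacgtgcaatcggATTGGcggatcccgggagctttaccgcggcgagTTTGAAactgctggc
Ccnb2 promoter, chr9:70421561-70421731, minus strand: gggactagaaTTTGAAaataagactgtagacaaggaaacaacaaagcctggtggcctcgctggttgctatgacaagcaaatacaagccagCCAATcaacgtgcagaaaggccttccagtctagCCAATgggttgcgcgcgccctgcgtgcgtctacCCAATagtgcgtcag
Cdc20 promoter, chr4:118437344-118437406, minus strand: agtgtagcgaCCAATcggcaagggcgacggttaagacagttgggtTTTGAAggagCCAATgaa
In the Cdc20 stretch, 1 CHR lies between a pair of CCAAT boxes, whereas that of Mki67 has 2 CHR copies after 3 CCAAT boxes. By role, both motifs were found in 9 of 21 genes for kinases, cyclins and phosphatases, 9 of 28 for chromosome structure, 8 of 18 for the spindle checkpoint and centromere, 7 of 20 for kinesins and the spindle, and 3 of 6 for nuclear transport. They were found in 3 of 14 replication genes, 1 of 16 RNA binding genes, 1 of 14 transcription factor genes, 0 of 8 genes for DNA repair and 0 of 8 for transporters and signalling. A match is a run of letters and not a shown binding site.

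A library held 12870563 to 25639437 counts (median 18168765). The G2/M genes took 1.88 to 3.19% of the counts. Their share in the polysomal libraries was 2.68% ± 0.413 in ASP shSCR, 2.94% ± 0.171 in NoASP shSCR, 2.62% ± 0.131 in ASP shGRIN2D and 2.62% ± 0.12 in ASP shDHPS (SD, n = 4 each). In the sub-polysomal libraries it was 2.06% ± 0.118, 2.15% ± 0.031, 1.98% ± 0.123 and 2.14% ± 0.0732 (SD, n = 4 each), respectively.

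The polysomal library of ASP shSCR replicate 1 stood apart. Over the 11046 genes that reached 10 counts in every library, called well-counted here, each library was placed between the average sub-polysomal (0) and average polysomal (1) profile of the other conditions. This library was at 0.372, the remaining polysomal ones at 0.777 to 1.27 and all sub-polysomal ones at −0.114 to 0.162. Mitochondrially encoded genes took 4.72% of its counts, against 0.692 to 1.00% in the other polysomal libraries of ASP shSCR. Among the G2/M genes, 101 of 187 had their lowest ASP shSCR ratio in this pellet and 24 their highest. Results that rest on it are therefore given with and without it.

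The silenced genes and cell markers were then examined. The Dhps level in CPM (counts scaled to a common library size) in sub-polysomal libraries was 40.2, 32.2, 41.0 and 39.6 in ASP shSCR and 9.54, 10.4, 9.63 and 8.44 in ASP shDHPS. The groups did not overlap, and ASP shSCR was higher by 2.01 on the log2 scale (edgeR adjusted p = 1.11e-08, standard error 0.16). Grin2d CPM was 3.18 to 6.54 in ASP shSCR and 1.76 to 2.73 in ASP shGRIN2D, a log2 difference of 0.88 that did not pass (standard error 0.29, edgeR adjusted p = 0.232). The epithelial genes Krt8, Krt18, Epcam and Cdh1 had median levels of 1050, 899, 516 and 178 CPM, respectively, over the 32 libraries. Those of the leukocyte gene Ptprc and the endothelial gene Pecam1 were 0.278 and 0.204 CPM, that of the macrophage gene Cd68 was 10.9 CPM, and Cd3e was not among the counted genes. Krt8 and Krt18 were higher in sub-polysomal RNA of ASP shSCR than of ASP shDHPS, by 0.74 (edgeR adjusted p = 0.049) and 1.00 (adjusted p = 0.032) on the log2 scale. Whether this bears on the G2/M genes was not tested.

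G2/M mRNAs as a group lay toward the polysomes. The measure was the log2 ratio of polysomal to sub-polysomal counts after TMM normalization over all libraries, so 0 marks an mRNA distributed like the bulk of genes. The median of the 187 ratios in the 4 pellets of ASP shSCR was 0.37, 0.62, 0.62 and 0.77. It was 0.64, 0.53, 0.64 and 0.77 in NoASP shSCR, 0.68, 0.40, 0.69 and 0.57 in ASP shGRIN2D, and 0.29, 0.35, 0.20 and 0.41 in ASP shDHPS. Every pellet median was thus above 0, and the highest ASP shDHPS pellet overlapped only with ASP shSCR replicate 1 and ASP shGRIN2D replicate 2. The median of the 11046 well-counted genes also differed between conditions, with means over pellets of 0.13, 0.16, 0.13 and 0.07 in the same order. Measured from it, the G2/M median was higher by 0.46 ± 0.11, 0.49 ± 0.10, 0.45 ± 0.09 and 0.24 ± 0.08 (log2, SD, n = 4 each).

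**Figure D1:**
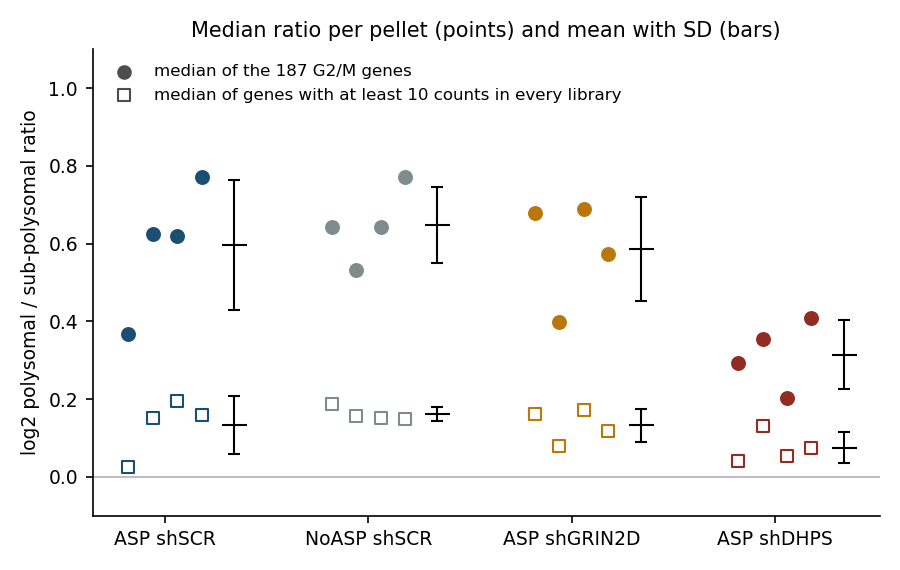
Median log2 polysomal to sub-polysomal ratio (y axis) in each pellet of the 4 conditions (x axis), for the 187 G2/M genes (filled circles) and for the well-counted genes (open squares). Bars show the mean and SD of 4 pellets, and the G2/M medians lie above the squares in every pellet, between 0.37 and 0.77 in ASP shSCR and between 0.20 and 0.41 in ASP shDHPS.

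In ASP shSCR, 102 of the 187 ratios were above 0 and 27 below it by edgeR's quasi-likelihood test (Benjamini-Hochberg adjusted p under 0.05), that is 54.5% and 14.4%. Of all genes, 20.8% were above and 18.9% below, and of the well-counted genes 31.8% and 26.7%. The fitted median was 0.64 for the G2/M genes and 0.11 for the well-counted genes. Without replicate 1 the counts were 107 and 28 (20.7% and 19.7% of all genes) and the median was 0.62. In NoASP shSCR, 111 were above and 26 below (background 23.7% and 20.6%), and in ASP shGRIN2D 100 and 28 (background 23% and 20.4%). In ASP shDHPS, 84 were above and 34 below (background 21.8% and 21.3%), with a fitted median of 0.29. These backgrounds are shares of all genes, which in ASP shSCR were smaller than those of the well-counted genes. The fitted medians of ASP shSCR and ASP shDHPS lay closer together when a trend on GC content was removed, as given below. When each fraction was scaled on its own, the median of all genes in ASP shSCR moved from −0.04 to 0.13 and their calls from 3695 above and 3363 below to 4702 and 2664 (26.5% and 15%). The G2/M calls were then 122 above and 24 below.

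Medians by role within the list ran from 1.03 to −0.61, and differences between roles were not tested. The roles are broad. Lig3, a DNA ligase, was counted with the spindle genes, and the ubiquitin ligase scaffolds Cul1, Cul3, Cul4a and Cul5 with the checkpoint genes. Knl1, Chaf1a, Odf2 and Hspa8 were given no role. The counts by role are to be read against the shares of all genes and of well-counted genes above and below 0 in the preceding paragraph. In ASP shSCR, the replication genes had a median ratio of 1.03, with 10 of 17 above 0 and 3 below, and the genes for RNA binding, splicing and translation 0.99, with 15 of 19 above and 1 below. Kinesin, spindle and cytoskeleton genes had a median of 0.80 (16 of 25 above, 1 below), DNA damage and repair genes 0.76 (6 of 10 above, 0 below), and nuclear transport genes 0.69 (5 of 6 above, 0 below). Genes for chromosome structure (median 0.65, 21 of 35 above, 4 below) and for the spindle checkpoint and centromere (0.61, 12 of 19 above, 2 below) followed. The kinases, cyclins and phosphatases were more divided, with a median of 0.36, 11 of 24 above and 3 below. In contrast, the transcription factors had a median of −0.61, with 2 of 16 above and 8 below, and the transporters and signalling genes −0.27, with 3 of 12 above and 5 below.

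**Figure D2:**
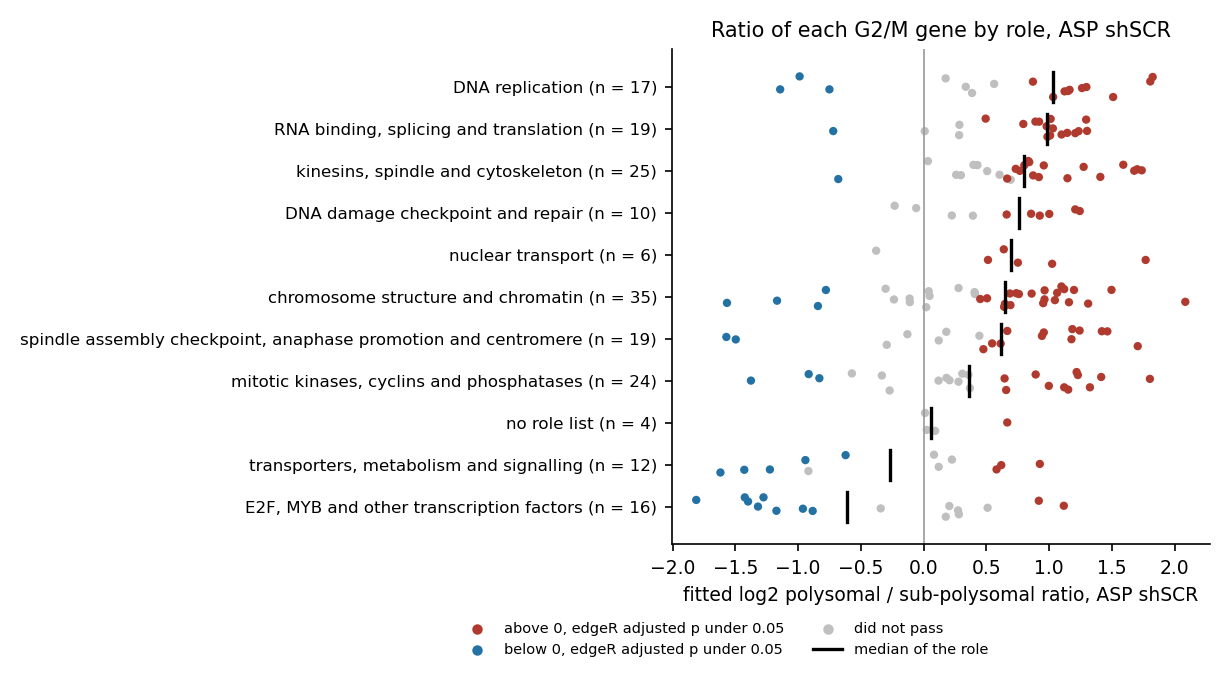
Fitted log2 polysomal to sub-polysomal ratio in ASP shSCR (x axis) of each G2/M gene, grouped by role (y axis, n genes). Red and blue points passed the edgeR test above and below 0, grey points did not pass, and black bars are medians, which run from 1.03 for replication genes to −0.61 for transcription factors.

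Replication or RNA binding genes again had the highest median and transcription factors the lowest in the other conditions. In ASP shDHPS, replication genes had a median of 1.23 (12 of 17 above, 3 below) and transcription factors −0.76 (3 of 16 above, 10 below). The median of the kinesin and spindle genes was 0.70 (14 of 25 above), that of the RNA binding genes 0.83 (14 of 19 above), and that of chromosome structure genes 0.12 (12 of 35 above, 8 below). In ASP shGRIN2D, transcription factors had a median of −0.85 (4 of 16 above, 9 below). Among cell cycle genes outside the set, the mitotic and G1/S lists also lay toward the polysomes. Of 39 other mitotic genes, 27 were above and 3 below in ASP shSCR (median 0.92), and of 29 other G1/S genes 25 were above and 1 below (median 1.06). The 9 genes of cell cycle exit had a lower median of 0.20, with 3 above and 2 below.

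Among kinases and cyclins, the gene most shifted to polysomes was Cdk1, the kinase that drives mitotic entry with cyclin B. Its log2 ratio in the pellets was 1.16, 2.36, 1.90 and 1.78 in ASP shSCR and 1.67, 2.18, 1.79 and 2.03 in ASP shDHPS. These groups overlapped, and the fitted ratio was 1.80 in ASP shSCR (standard error 0.19, edgeR adjusted p = 1.11e-07), 1.92 in NoASP shSCR, 2.17 in ASP shGRIN2D and 1.92 in ASP shDHPS. Ccnb1, the main cyclin B gene and outside the set, had nearly the same fitted ratios of 1.71, 1.73, 1.84 and 1.74. Ccnb2, the other mitotic cyclin B, did not. Its ratio was −0.11, 0.76, 0.16 and 0.01 in the ASP shSCR pellets, and the fitted value of 0.21 did not pass (edgeR adjusted p = 0.422). Ccna2, cyclin A, had fitted ratios of −0.27, −0.50, −0.35 and −0.64 in the 4 conditions, of which that in ASP shDHPS passed (edgeR adjusted p = 0.0196). Aurka, the centrosomal Aurora kinase, was at 1.23 in ASP shSCR and 1.66 in ASP shDHPS, and Aurkb, the Aurora kinase of the chromosomal passenger complex, at 0.65 and 1.13. Cdkn1b, which encodes the inhibitor p27, was at 1.00 and 0.66. The promoters of Cdk1 and Ccnb2 shown above, both with CCAAT and CHR, thus belonged to genes with ratios of 1.80 and 0.21. The Ccnb2 ratio fell just below 0 without ASP shSCR replicate 2 or with a GC trend removed, as given below. Over the 42 genes with both motifs, the median ratio in ASP shSCR was 0.86, and over the other 114 genes with a window it was 0.53.

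Checkpoint and chromosome genes were mostly above 0 in ASP shSCR. Cdc20, the activator of the anaphase-promoting complex, had ratios of 1.17, 0.98, 2.03 and 1.50 in ASP shSCR and 2.96, 1.99, 1.93 and 1.77 in ASP shDHPS. The groups overlapped through 1 ASP shSCR pellet, and both fitted ratios passed, at 1.42 (edgeR adjusted p = 1.13e-05) and 2.16 (adjusted p = 3.64e-08). Bub1, a checkpoint kinase at kinetochores, was at 1.22 and 0.90, and Top2a, the topoisomerase that untangles sister chromatids, at 1.16 and 0.81 in the same conditions. Opposite to these were Ube2s, the ubiquitin-conjugating enzyme of the anaphase-promoting complex, with −1.57 in ASP shSCR, and Cenpa, the histone H3 variant of centromeres, with −1.50 (edgeR adjusted p = 6.21e-07 and 1.39e-06).

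Spindle genes, chosen after their values were seen, showed the same. Kif11, the motor that pushes spindle poles apart, had log2 ratios of 1.37, 1.45, 1.78 and 2.21 in ASP shSCR and 0.78, 1.202, 0.46 and 0.95 in ASP shDHPS. The groups did not overlap, and the fitted ratios of 1.70 and 0.85 were both above 0 by the test, while the difference between them did not pass (0.85, edgeR adjusted p = 0.137). Prc1, which bundles microtubules of the central spindle, had fitted ratios of 1.68 and 1.31, and Tacc3, a centrosomal protein that stabilises spindle microtubules, 1.74 and 1.74. The sole spindle gene below 0 was Chmp1a, an ESCRT-III protein, at −0.68 in ASP shSCR (edgeR adjusted p = 0.00505). In NoASP shSCR, 21 of 25 genes of this role were above 0 and 1 below, with a median of 0.98.

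Among RNA binding genes, the highest ratios in ASP shSCR belonged to Ddx39a, an mRNA export helicase (1.30), Tra2b, a splicing regulator (1.29), Sfpq, a paraspeckle protein (1.24), and Dkc1, the pseudouridine synthase of box H/ACA particles (1.21). The exception was Tent4a, a poly(A) polymerase, at −0.72 (edgeR adjusted p = 0.00101). Nuclear transport genes were led by Kpna2 (1.77) and its partner Kpnb1, importin beta (1.02), while Tnpo2, a transportin, was at −0.38 and did not pass (adjusted p = 0.205). Of the repair genes, Exo1, an exonuclease, was at 1.24 and Chek1, the checkpoint kinase that restrains mitotic entry after DNA damage, at 1.21. Among transporters and metabolic genes, Sqle, the squalene epoxidase of sterol synthesis, was at 0.93, whereas Amd1 (−1.62) and Mt2 (−1.43) were below 0, all with edgeR adjusted p-values of 8.92e-05 or less.

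Over all 16 pellets, the highest mean log2 ratios belonged to Nasp (2.10), a histone chaperone, Cdc45 (1.95) and Mcm6 (1.91), both of the replicative helicase, Cdk1 (1.95), and Kpna2 (1.89), an importin. Nasp had ratios of 1.55, 2.06, 2.29 and 2.41 in the ASP shSCR pellets. Cdc45 was nearly even there, at 1.68, 1.72, 1.92 and 1.89. None of the 16 pellets was below 1 for either gene, and Mcm2, another helicase subunit, had a fitted ratio of 1.03 in ASP shSCR (edgeR adjusted p = 0.000887).

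The lowest means belonged to E2f4 (−2.11), a mostly repressive E2F, Amd1 (−2.10), which makes the aminopropyl donor for polyamine synthesis, E2f1 (−1.83), an activating E2F, H2az2 (−1.72), a histone H2A variant gene, and Dbf4 (−1.70), the activator of the Cdc7 kinase. E2f4 had ratios of 1.16, −3.08, −2.33 and −2.37 in ASP shSCR and −1.62, −2.20, −1.94 and −2.12 in ASP shDHPS. E2f1 had 0.47, −2.19, −2.13 and −1.67 in ASP shSCR. For both genes, replicate 1 of ASP shSCR was the sole pellet of 16 above 0. The fitted ratio of E2f4 in ASP shSCR was −1.81 (standard error 0.41, edgeR adjusted p = 0.000745), and −2.66 (standard error 0.20, adjusted p = 4.48e-11) without that pellet. The polysomal E2f4 level of this library was 642 CPM, against 34.3, 44.0 and 42.1 CPM in the other ASP shSCR libraries, whereas its sub-polysomal level was 216 CPM, against 269, 201 and 202. Tfdp1, the dimer partner of E2F proteins, Dbf4, Tgfb1, a secreted growth factor, Kmt5a, a histone H4 methyltransferase, and Cdc25b, a phosphatase that activates cyclin-dependent kinases, were also above 0 in that pellet alone among the ASP shSCR pellets. The transcription factors were 4 above and 8 below 0, with a median of −0.65, when it was left out.

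The other E2F and MYB genes were mostly below 0. E2f2 had fitted ratios of −1.17, −1.16, −1.10 and −0.79, and Mybl2, the MYB protein of late cell cycle promoters, −1.40, −1.38, −1.34 and −1.26, all of which passed. Foxm1, a G2/M transcription factor outside the set, had −1.44, −1.50, −1.62 and −1.43. Exceptions were Rbl1, the pocket protein p107, at 0.92 in ASP shSCR (edgeR adjusted p = 0.000169), and Meis1, a homeobox factor, at 1.12 (adjusted p = 1.45e-05). E2f3 did not pass in ASP shSCR (−0.34, adjusted p = 0.165).

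**Figure D3:**
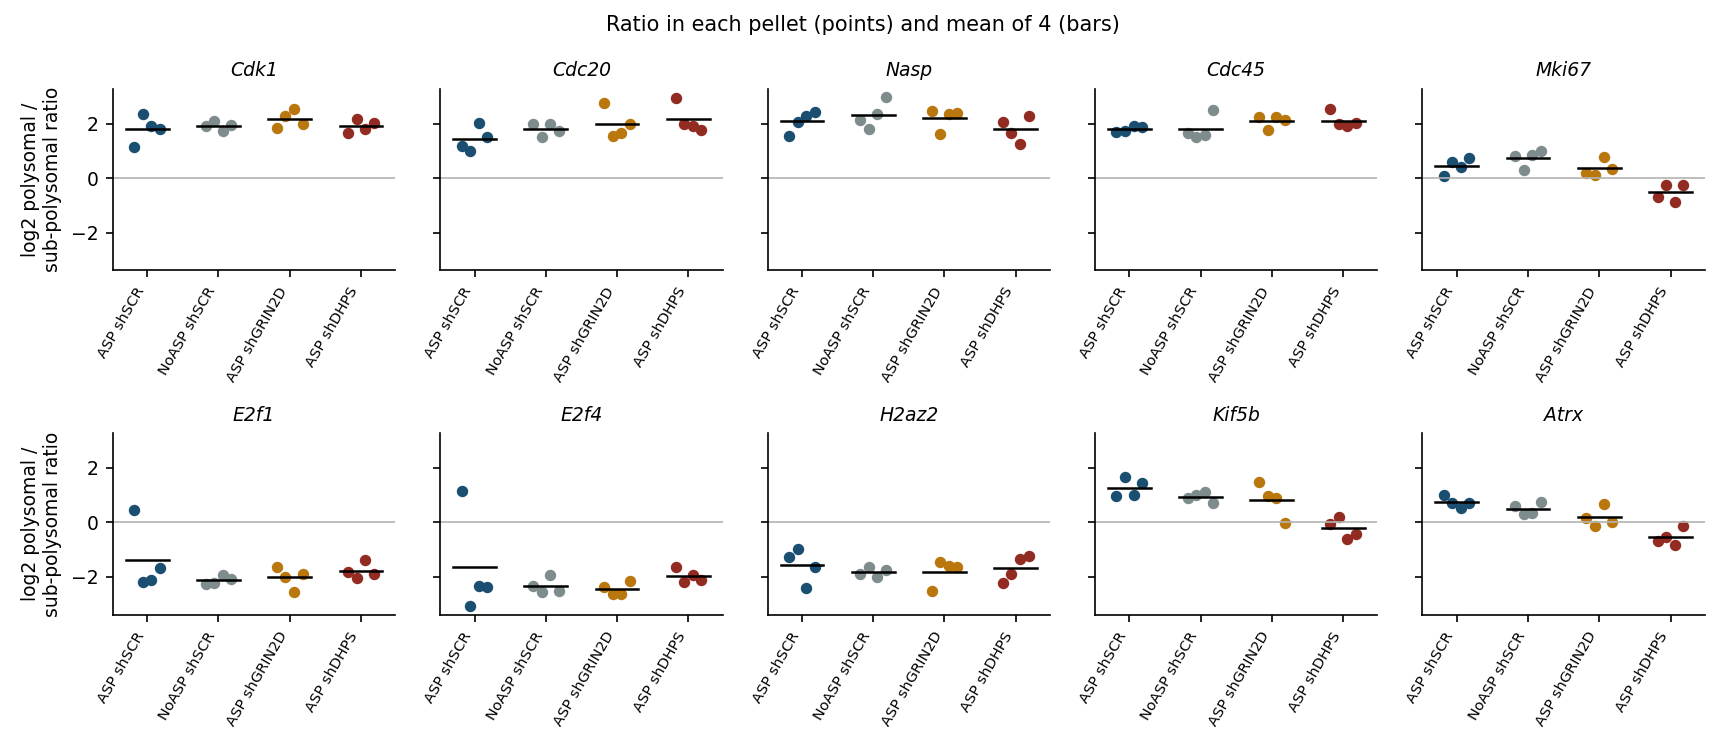
Log2 polysomal to sub-polysomal ratio (y axis) in each pellet of the 4 conditions (x axis) for 10 named G2/M genes, with the mean of 4 pellets as a bar. Kif5b, Atrx and Mki67 lie lower in ASP shDHPS than in every ASP shSCR pellet, and E2f1 and E2f4 each have 1 pellet above 0, replicate 1 of ASP shSCR.

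Neither aspartate nor Grin2d silencing gave a called difference in the ratio of any G2/M gene, by edgeR or by DESeq2. Against NoASP shSCR, 0 of 187 passed (0% of all genes) and 0 had an unadjusted p under 0.05, against 1.01% of all genes higher and 0.918% lower. The median difference was −0.08, and −0.02 over all genes. The smallest p-values in each direction belonged to E2f1 (0.70) and Kmt5a (0.61), and to Espl1, the separase that cleaves cohesin (−0.58), and Slc7a1, a cationic amino acid transporter (−0.52), all with an edgeR adjusted p of 1. Without ASP shSCR replicate 1, E2f1 differed by 0.11 and Kmt5a by 0.12. Against ASP shGRIN2D, 0 of 187 passed (0% of all genes) and 1, Atrx, had an unadjusted p under 0.05, against 1.81% higher and 1.41% lower (0 without ASP shSCR replicate 1, against 0.901% and 1.09%). Atrx differed by 0.56 and Dbf4 by 0.70, and Cdc20 by −0.57 and Nusap1, a microtubule binding protein, by −0.52, all with an edgeR adjusted p of 1, and without ASP shSCR replicate 1 Dbf4 differed by 0.15. These p-values do not show that the ratios were equal.

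Against ASP shDHPS, edgeR called 2 of 187 ratios, those of Kif5b and Atrx, higher in ASP shSCR and 0 lower (0.208% and 0% of all genes). DESeq2 called more members and more of all genes, and among these members only Pttg1 had a lower ratio in ASP shSCR. Kif5b (ENSMUSG00000006740) encodes the heavy chain of conventional kinesin, which carries organelles along microtubules. Its log2 ratio was 0.98, 1.67, 1.01 and 1.44 in ASP shSCR and −0.07, 0.19, −0.60 and −0.41 in ASP shDHPS. The groups did not overlap, and the difference was 1.50 (standard error 0.28, edgeR adjusted p = 0.0376). Atrx (ENSMUSG00000031229), an X-linked chromatin remodeller that deposits histone H3.3, had ratios of 0.99, 0.71, 0.52 and 0.73 in ASP shSCR and −0.70, −0.52, −0.84 and −0.12 in ASP shDHPS. Again there was no overlap, and ASP shSCR was higher by 1.29 (edgeR adjusted p = 0.0376, standard error 0.24). The other 2 conditions lay between or near ASP shSCR, with fitted ratios of 0.93 and 0.83 for Kif5b and 0.51 and 0.18 for Atrx in NoASP shSCR and ASP shGRIN2D. Without ASP shSCR replicate 1, the differences were 1.56 and 1.16, both with an edgeR adjusted p of 0.0478. Both calls were lost in 9 of the 16 fits that left out 1 pellet, with edgeR adjusted p-values up to 0.214. They were also lost with DESeq2's size factors, without a term for each pellet and with the compared conditions alone.

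Further members differed in the same direction without passing by edgeR. Cenpe, the kinetochore motor, had ratios of 0.63, 0.80, 0.21 and 0.81 in ASP shSCR and −0.63, −0.31, −0.24 and −0.49 in ASP shDHPS, a difference of 1.03 (edgeR adjusted p = 0.054). Mki67, the proliferation marker Ki-67 that coats mitotic chromosomes, had 0.07, 0.60, 0.39 and 0.73 against −0.70, −0.25, −0.88 and −0.26, a difference of 0.97 (adjusted p = 0.0791). The groups of both genes did not overlap. Stag1, a cohesin subunit (1.09, adjusted p = 0.054), Smc2, a condensin subunit (0.97, adjusted p = 0.0591), and Cul5, a ubiquitin ligase scaffold (0.91, adjusted p = 0.075), were close behind. In the other direction, the values were −0.79 for Pttg1, the securin that restrains separase, −0.74 for Cdc20 and −0.73 for Srsf2, a splicing factor, with edgeR adjusted p-values of 0.176, 0.275 and 0.269. DESeq2 called Pttg1 as well as Cenpe, Mki67, Stag1, Smc2 and Cul5. Of the 187 genes, 23 had all ASP shSCR pellets above all ASP shDHPS pellets and 0 the reverse, against 4.71% and 2.15% of all genes. At an unadjusted p under 0.05, 37 were higher and 3 lower, against 8.68% and 4.93% of all genes, and 45 and 6 without ASP shSCR replicate 1 (8.31% and 5.31%). All genes include those with few counts, whereas 185 of the 187 were well-counted. The median difference was 0.13 for the G2/M genes and 0.01 for all genes. By role, the medians ran from 0.35 for chromosome structure genes and 0.30 for repair genes to 0.03 for spindle genes, 0.02 for kinases and cyclins and −0.06 for replication genes.

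The difference followed the base composition of the mRNAs. Across the 187 genes, Spearman's rho between the ratio difference and the GC content of the transcript was −0.732, and −0.771 without ASP shSCR replicate 1. It was −0.498 across 13345 genes with an annotated coding sequence, and genes of 1 library share depth and composition, so these values are descriptions. The 63 G2/M genes with 37 to 44.9% GC had a median difference of 0.54, and 58 of them were positive. The 62 genes of 44.9 to 50.2% GC had a median of 0.16 with 42 positive, and the 62 genes of 50.2 to 62.6% GC a median of −0.29 with 11 positive. All coding genes in the same GC ranges had medians of 0.50, 0.18 and −0.27. Without ASP shSCR replicate 1 these were 0.49, 0.20 and −0.32, against 0.62, 0.25 and −0.32 for the G2/M genes. Thus G2/M genes and all coding genes of like GC content had like medians, with the widest gap in the GC-poor range without that pellet. The G2/M list had a lower median GC content of 47.6%, against 50.6% for coding genes. Kif5b has 41.1% GC and Atrx 39.5%, whereas Cdc20 has 55.6%.

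**Figure D4:**
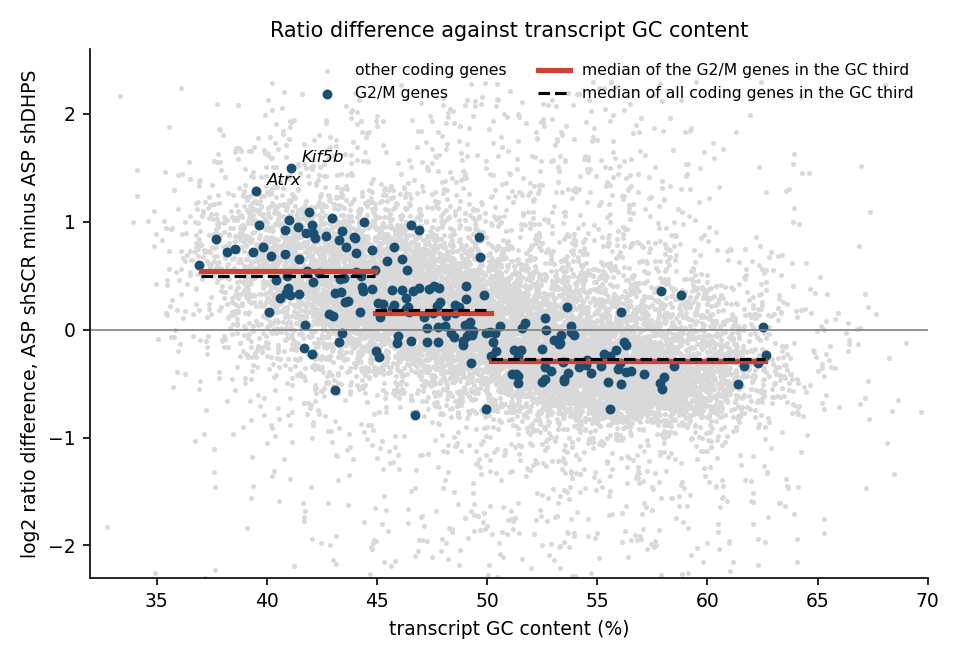
Log2 ratio difference, ASP shSCR minus ASP shDHPS (y axis), against transcript GC content in percent (x axis) for the 187 G2/M genes (blue) and 13158 other coding genes (grey, 527 of them outside the axes). Red and dashed black lines give the medians of G2/M genes and of all coding genes in each GC range, which lie close together at 0.54 and 0.50, 0.16 and 0.18, and −0.29 and −0.27.

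Within single pellets, the rho of the G2/M log2 ratios with GC content was −0.42 to −0.155 in ASP shSCR, −0.259 to −0.176 in NoASP shSCR, −0.352 to −0.126 in ASP shGRIN2D and −0.0939 to 0.183 in ASP shDHPS. The ASP shDHPS pellets thus did not overlap with those of the other conditions for the G2/M genes. For all coding genes the ranges were −0.403 to −0.164, −0.239 to −0.133, −0.326 to −0.0694 and −0.15 to 0.172 in the same order, so that ASP shDHPS overlapped with NoASP shSCR and ASP shGRIN2D but not with ASP shSCR. When a trend on GC content was removed from each library as an offset, an alternative chosen after the data were seen, 0 G2/M genes and 0 of 17305 genes passed against ASP shDHPS. The difference of Kif5b was then 0.97 (edgeR adjusted p = 0.305), that of Atrx 0.69 (adjusted p = 0.348) and the median of the list −0.01. Whether the trend arose in the cells or in the libraries was not tested. Coding length moved with the difference less, with a rho of 0.405 across the G2/M genes and 0.122 across coding genes. For transcript length the rho was 0.475 and 0.265, respectively. The 62 genes with over 2304 nt of coding sequence had a median difference of 0.41 (all such genes 0.14).

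Hypusinated eIF5A is known for easing peptide bonds at consecutive prolines, so runs of 3 or more proline codons were sought in the coding sequences (GENCODE M21, GRCm38). They were found in 44 of the 187 genes (23.5%), against 23.98% of coding genes. The ratio difference against ASP shDHPS had a median of 0.18 in these 44 genes and 0.05 in the other 143, against −0.03 and 0.02 in all coding genes with and without a run. Kif5b, with the largest difference, has none. Atrx has 2 runs near its end, and Smc4, a condensin subunit, has the longer run of the stretches shown. They are printed with 6 codons on each side to show such runs in a called and in an uncalled gene, and capitals mark the proline codons.
Atrx exon 35, codons 2452 to 2461, chrX:105800205-105800270, minus strand: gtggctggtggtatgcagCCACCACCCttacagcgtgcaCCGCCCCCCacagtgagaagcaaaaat
Smc4 exon 2, codons 18 to 20, chr3:69006114-69006158, plus strand: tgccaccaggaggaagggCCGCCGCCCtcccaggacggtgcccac
Smc4 exon 3, codons 64 to 69, chr3:69007227-69007280, plus strand: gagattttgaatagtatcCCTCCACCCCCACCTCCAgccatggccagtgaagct
Smc4 had ratios of −0.14, 0.62, 0.40 and 0.75 in ASP shSCR and −0.50, −0.09, −0.44 and −0.08 in ASP shDHPS. The groups overlapped, and the difference of 0.69 did not pass (standard error 0.25, edgeR adjusted p = 0.219). With 40.2% GC, Smc4 also belongs to the GC-poor genes.

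The levels within a fraction were compared next, with TMM normalization among the 16 libraries of that fraction. Per kilobase of transcript, the most abundant G2/M mRNAs in sub-polysomal RNA were Mt2, a metallothionein (1042 CPM per kb), Hmga1, an architectural chromatin protein (1024), Hspa8, a constitutive chaperone (959), and H2az1, a histone H2A variant gene (706). In polysomal RNA they were Hspa8 (1142), H2az1 (800), Hmga1 (741) and Mt2 (471). Cdk1 was at 25.4 CPM per kb in sub-polysomal and 107 in polysomal RNA, Cdc20 at 42.6 and 171, and Ccnb2 at 83.0 and 113. Atrx (2.38 and 3.16) and Brca2 (0.881 and 1.29) were near the lower end.

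No G2/M gene passed edgeR's or DESeq2's test for a difference in level with added aspartate. In sub-polysomal RNA, 0 of 187 passed against NoASP shSCR (0% of all genes), 2 were higher and 7 lower at an unadjusted p under 0.05 (2.47% and 2.43% of all genes), and the median difference was −0.12. All 4 ASP shSCR libraries lay below all 4 of NoASP shSCR for 8 genes and above them for 1 (1.66% and 1.6% of all genes). When ASP shSCR replicate 1 was left out, 2 were higher and 2 lower at an unadjusted p under 0.05 (2.69% and 1.79% of all genes). The smallest p-values belonged to Hmga1 (0.38), Tgfb1 (0.36), Slc12a2, an ion cotransporter (−0.48), and Cul5 (−0.43), with an edgeR adjusted p of 0.848 each. In polysomal RNA, 0 passed (0% of all genes), 9 were higher and 0 lower at an unadjusted p under 0.05, against 6.87% and 0.879% of all genes. These counts rested on ASP shSCR replicate 1, without which 0 were higher and 0 lower (0.817% and 0.777% of all genes). The median difference was −0.12, 50 of the 187 differences were positive, and the ASP shSCR libraries lay above all of NoASP shSCR for 0 genes and below for 2 (0.772% and 0.631% of all genes). E2f4 differed by 2.23 (standard error 0.67, edgeR adjusted p = 0.352), which rested on ASP shSCR replicate 1 and became −0.03 without it. That of E2f1 was 1.51 and became 0.14 without the same pellet. The other values were −0.48 for Hnrnpd, an RNA binding protein, and −0.43 for Nusap1.

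Grin2d silencing likewise gave no level called by edgeR. In sub-polysomal RNA 0 of 187 passed, also by DESeq2 (background 0.208% higher, 0.107% lower), with 17 higher and 4 lower at an unadjusted p under 0.05 (5.77% and 5.24% of all genes). The smallest p-values were those of Fancc, a Fanconi anaemia protein (0.61, edgeR adjusted p = 0.197), Cdc20 (0.54), Amd1 (−0.47) and Notch2, a receptor (−0.37). In polysomal RNA 0 passed (background 0% higher, 0.0169% lower), with 14 higher and 0 lower at an unadjusted p under 0.05 (7.03% and 2.02% of all genes), and 8 and 0 without ASP shSCR replicate 1 (3.12% and 2.14%). Brca2, a DNA repair protein, had polysomal levels of 18.4, 16.2, 15.1 and 20.6 CPM in ASP shSCR and 8.89, 7.55, 13.9 and 8.27 CPM in ASP shGRIN2D. These did not overlap, and the difference of 0.86 did not pass by edgeR (adjusted p = 0.244) but did by DESeq2 (adjusted p = 0.0499). E2f4 (2.27, and 0.03 without ASP shSCR replicate 1), Stmn1, a microtubule destabiliser (−0.33), and H2bc12 (−0.63) completed the list.

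Against ASP shDHPS, edgeR called 1 gene, Bcl3, in sub-polysomal RNA. The background was 0.974% of genes higher and 0.439% lower. DESeq2 also called Prim2, Ccnt1, Stag1 and Kpna2, and more of all genes. Bcl3, an IκB-like coactivator, was at 19.3, 44.6, 17.3 and 24.4 CPM in ASP shSCR and 9.30, 18.1, 12.6 and 13.96 CPM in ASP shDHPS. The groups overlapped, and the difference was 0.97 (standard error 0.24, edgeR adjusted p = 0.0362). Without ASP shSCR replicate 2, the highest library, it was 0.60 (adjusted p = 0.265). At an unadjusted p under 0.05, 6 genes were higher and 18 lower, against 7.75% and 8.2% of all genes, and the median difference was −0.11.

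In polysomal RNA, 0 genes passed by edgeR (background 0.158% higher, 0.0113% lower), and at an unadjusted p under 0.05, 41 were higher and 5 lower, against 12% and 4.34% of all genes. With ASP shSCR replicate 1 left out, these were 39 and 1 (8.61% and 5.16%). The polysomal difference followed GC content too, with Spearman's rho of −0.557 across the G2/M genes and −0.266 across coding genes. Without that pellet the rho across the G2/M genes was −0.719, and no member was called once a GC trend was removed. Kif5b was at 103, 140, 176 and 184 CPM in ASP shSCR and 70.1, 93.3, 60.02 and 76.1 in ASP shDHPS. The groups did not overlap, and the difference was 1.01 (standard error 0.22, edgeR adjusted p = 0.0627). Its sub-polysomal levels of 39.7, 40.3, 79.5 and 62.4 CPM overlapped with 66.5, 76.8, 81.8 and 91.1 CPM in ASP shDHPS, a log2 change of −0.51 that did not pass (adjusted p = 0.207). Polysomal Mki67 was at 116, 185, 240 and 276 CPM in ASP shSCR and 66.9, 96.5, 96.9 and 109 in ASP shDHPS, again without overlap (1.146, edgeR adjusted p = 0.0939). Its sub-polysomal level differed by 0.09. Polysomal Atrx (0.99, adjusted p = 0.099) and Cenpe (0.99, adjusted p = 0.0816) were alike, and H2bc12 (−1.01) and Rpa2, a single-strand DNA binding protein (−0.40), had the smallest p-values in the other direction. DESeq2 called 10 genes, all higher in ASP shSCR, against 3.72% of the 12573 genes it tested. Without ASP shSCR replicate 1, 4 genes were called higher by edgeR, against 0.67% of all genes, namely Kif5b (1.14, edgeR adjusted p = 0.0167), Mki67 (1.33, adjusted p = 0.0213), Smc4 (1.12, adjusted p = 0.0213) and Cenpe (1.09, adjusted p = 0.0309).

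**Figure D5:**
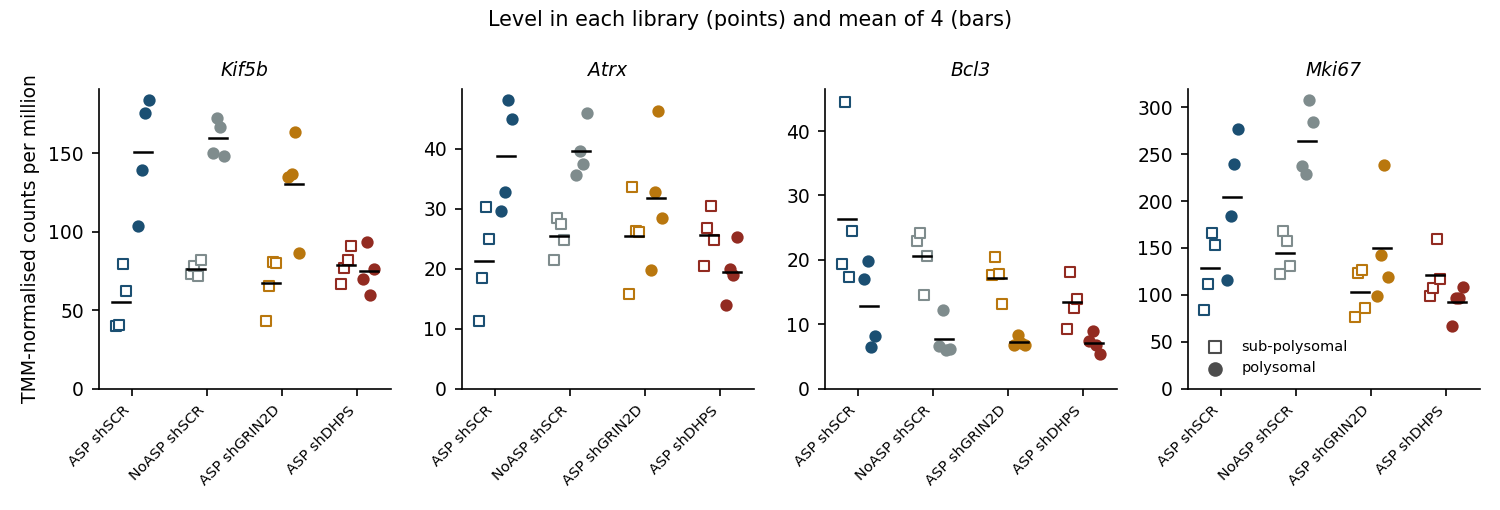
TMM-normalised CPM (y axis) of Kif5b, Atrx, Bcl3 and Mki67 in each sub-polysomal (open squares) and polysomal (filled circles) library of the 4 conditions (x axis), with means of 4 as bars. Fractions were normalised separately, and the polysomal points of Kif5b, Atrx and Mki67 in ASP shDHPS lie below those in ASP shSCR, whereas 1 sub-polysomal Bcl3 library of ASP shSCR stands at 44.6.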

How the data were processed

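Counts per gene were deposited by the authors. Reads were trimmed with Trim Galore 0.6.6, aligned to GRCm39 with STAR 2.6.1 and quantified with Salmon 1.4.0, per the paper's Methods and the submitters' processing notes. Estimates were rounded, and every gene kept has counts in at least 3 of 4 replicates of at least 1 group of condition and fraction, so the lowest genes were not analysed here. The gene set file was deposited with them and was used only for membership. The authors' own comparison tables (log2 fold changes, p-values, scores) were not used.

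The polysomal to sub-polysomal ratio was fitted with edgeR 4.0.16 in R 4.3.3 (TMM over 32 libraries, quasi-likelihood F-test, a term for each of the 16 pellets and a ratio for each condition). Levels were fitted among the 16 libraries of a fraction. The two-sided p-values were adjusted over all 17757 genes by the Benjamini-Hochberg method (threshold 0.05). Pellet ratios used a prior count of 2. DESeq2 1.42.0 was an alternative. The steps were tested on simulated data. Figures were drawn with matplotlib 3.10.9.

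The members, roles and other lists were chosen with earlier results of these data known. Named genes were fixed proliferation markers, members called, and the 5 highest and 5 lowest mean ratios. These highest and lowest ratios were taken among members with a mean of at least 50 counts. Where no member was called in a comparison, the 2 with the smallest p in each direction were named, without a minimum count. Ube2s, Cenpa, the spindle, RNA binding, transport, repair and metabolic genes named by value, the further E2F, MYB, Rbl1 and Meis1 genes, the uncalled members near the threshold against ASP shDHPS, and Smc4 were chosen after their values were seen.

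The Methods describe the pellets as independent and the fractions of a pellet as matched. Replicate numbers are not stated to pair pellets of different conditions.

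GC content and length came from GENCODE M21 (GRCm38), matched for 97.5% of genes, and promoters from RefSeq (GRCm38.p6), since no GRCm39 annotation was used here. Library totals of 12870563 to 25639437 counts set the counting error, and the printed standard errors also hold the spread between pellets.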

Additional observations from a re-analysis of the deposited data

Results flagged for a closer look

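Among the named genes, 184 groups of 4 pellets were examined for a pellet far from the other 3, and 8 were found. Chance gives about 1 in 20 groups, that is 9.2 of 184, so the number by itself is what chance gives. In ASP shSCR, the log2 ratio of Tgfb1 was 0.21 in replicate 1 and between −1.72 and −1.64 in the others, in the same pellet in which E2f1, E2f4, Tfdp1, Dbf4 and Kmt5a were above 0. In NoASP shSCR, Brca2 was at −0.0885 in replicate 2 (others 0.58 to 0.69) and Cdc45 at 2.49 in replicate 4 (others 1.50 to 1.64). In ASP shGRIN2D, replicate 2 was low for Hnrnpd at 0.59 (others 1.396 to 1.48) and for Nasp at 1.62 (others 2.34 to 2.46). In ASP shDHPS, Foxm1, outside the set, was at −1.88 in replicate 4 (others −1.33 to −1.24), Fancc at −0.0622 in replicate 2 (others 0.29 to 0.34), and Cdc45 at 2.53 in replicate 1 (others 1.91 to 2.01).

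The polysomal to sub-polysomal ratio differed between ASP shSCR and ASP shDHPS for Kif5b by 1.50 and for Atrx by 1.29 on the log2 scale (edgeR adjusted p = 0.0376 for both), in 4 of 4 against 4 of 4 pellets. Both genes are GC-poor, and neither passed once a GC trend was removed.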

How the results depend on the processing

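The excess of ratios above 0 kept its direction in every condition and alternative tried, while its size did not. With TMM within each fraction the median ratio was 0.83 in ASP shSCR, 0.78 in NoASP shSCR and 0.42 in ASP shDHPS. With the GC offset, added after the data were seen, it was 0.39 in ASP shSCR, 0.49 in NoASP shSCR, 0.35 in ASP shGRIN2D and 0.29 in ASP shDHPS. Over the fits without 1 pellet, 111 to 136 members were called in ASP shSCR (86 to 109 above and 24 to 28 below, against 16.6 to 21.9% and 14.9 to 19.9% of all genes). The calls were 117 to 140 in NoASP shSCR (92 to 113 above, against 19.8 to 24.4%), 111 to 131 in ASP shGRIN2D (83 to 103 above, against 19.3 to 23.4%) and 99 to 121 in ASP shDHPS (71 to 85 above, against 18.4 to 22.1%). The ratio of Ccnb2 in ASP shSCR was −0.0199 without replicate 2 and −0.01506 with the GC offset (0.27 at most without 1 pellet), and that of Mki67 (0.45, edgeR adjusted p = 0.047) passed in 7 of 16 fits without 1 pellet.

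The count of members called against ASP shDHPS depended on the setting. For the ratio it was 2 as reported, 0 with DESeq2's size factors, 0 without a pellet term, 0 with the compared conditions alone, 0 with the GC offset (median −0.0141), 9 with TMM within each fraction, 10 with at least 10 counts in every library and 15 by DESeq2's test. Calls over all genes tested moved with it, from 0.208% to 1.04%, 2.41% and 5.58% in the last 3 settings. Without 1 pellet it was 0 to 7 (0 to 0.895% of all genes), with 0 when ASP shSCR replicate 2 or 4, NoASP shSCR replicate 1, 2 or 3, ASP shGRIN2D replicate 2, or ASP shDHPS replicate 1, 3 or 4 was left out. For the sub-polysomal level it was 1 (1.41% of all genes), 5 by DESeq2 (4.91%), 0 with the GC offset (0.809%) and 0 to 4 without 1 pellet (0.451 to 2.08%). For the polysomal level it was 0 (0.169%), 10 by DESeq2 (4.41%) and 0 to 4 without 1 pellet (0 to 1.71%). Against ASP shGRIN2D, DESeq2 called 1 polysomal level (0.551% of the genes tested), and in the other comparisons with ASP shGRIN2D and NoASP shSCR it called 0 members. The polysomal E2f4 difference against NoASP shSCR was −0.0319 without ASP shSCR replicate 1 and at most 2.58 without another pellet. The cause of these shifts was not tested.

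The labels do not say what a shared replicate number marks, and not every same-numbered pair correlated, so the conditions were not treated as paired. Deviations of same-numbered pellets had a median correlation of 0.166 for the ratio, 0.249 for the sub-polysomal and 0.358 for the polysomal level (14, 18 and 16 of 24 pairs over 0.1), against −0.05, −0.0763 and −0.107 between different numbers. By mean correlation, 10, 14 and 11 of 16 pellets, respectively, were closest to those of their own number, a hint of pairing from the data and not from the design. With a replicate block across conditions, 10 members were called for the ratio, 7 for the sub-polysomal level and 12 for the polysomal level against ASP shDHPS, in place of 2, 1 and 0. Calls over all genes rose to 1.3%, 4.27% and 2.28%, from 0.208%, 1.41% and 0.169%.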

Other observations

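Some cell cycle genes outside the G2/M list passed the test on levels. In sub-polysomal RNA, Plk2, a stress-responsive polo-like kinase, was lower in ASP shSCR than in ASP shDHPS (log2 difference −1.26, edgeR adjusted p = 0.00452), and Gins3, a subunit of the replicative helicase, had a difference of −0.83 (adjusted p = 0.0271). Gadd45a, a growth arrest gene, was higher in ASP shSCR (0.88, adjusted p = 0.0488). Against ASP shGRIN2D, Ccng1, a p53 target cyclin, was higher by 0.95 (adjusted p = 0.00232) and Ccne1, the G1/S cyclin E, by 0.87 (adjusted p = 0.0159). These genes were picked for having passed. The 9 genes of cell cycle exit had a median ratio difference of 0.81 between ASP shSCR and ASP shDHPS, with 0 called by edgeR. The median difference of all genes, their share called and the trend of the difference with GC content are given above with the G2/M ratios. The GC content of these 9 genes is not given here, so their median is not set against genes of like GC content.

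The sub-polysomal level difference between ASP shSCR and NoASP shSCR also followed GC content, with Spearman's rho of 0.707 across the 187 G2/M genes and 0.506 across 13345 coding genes, although 0 of 187 genes were called. Without ASP shSCR replicate 1 the rho across the G2/M genes was 0.479. This was not tested further.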
